A study of Mus musculus with 8 samples.

Results

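The collagen chain genes of the mouse were read out in injured carotid arteries with and without the microRNA miR-126. Members were all genes with a noncontrol probe whose gene name in the scanner files is Col, digits, a, digits and nothing more. This rule found 41 genes among 36492 named genes or transcripts, and 37 of the 41 were bright enough to enter the test, in which 23830 genes or transcripts took part. The samples were wire-injured carotid arteries of female mice aged 6 weeks and of mixed genetic background, taken 14 days after the injury. All mice were ApoE-/-, lacking the apolipoprotein E that clears remnant lipoproteins, and ate a western-type diet. The groups differed in 1 labelled factor, the miR-126 genotype, with 4 miR-126+/+ and 4 miR-126-/- arteries and 1 array for each. The arrays are numbered 1 to 4 within a genotype as the labels number them.

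Collagens are proteins in which 3 chains wind into a triple helix, and each chain is the product of its own gene. Fibrillar collagens form the load-bearing fibres of the media and adventitia, type IV collagens form the sheet of the basement membrane, and FACIT collagens (fibril-associated collagens with interrupted triple helices) sit on the surface of fibrils. After wire injury smooth muscle cells and fibroblasts of the artery lay down collagen in the growing neointima. MiR-126 is encoded in an intron of the endothelial gene Egfl7 and binds its targets through its seed, and it is shown because it is the element that the genotypes differ in. The mature strand from RefSeq (GRCm38.p6, chr2:26591402-26591423, plus strand) has the seed, bases 2 to 8, in capitals.
mmu-miR-126a-3p: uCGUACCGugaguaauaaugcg

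A collagen chain has glycine as every 1 of 3 residues in the helix, so its coding sequence repeats a codon of the form GGN every 9 bases. Of the 61 collagen probes on the array, 2 (3.28%) carried such a repeat over their whole 60 bases, against 4 of 55620 other probes (0.0072%). Both are shown because they are the tested probes of their genes and lie in the coding part of the triple helix. The first reads Col15a1 at chr4:47283786-47283845 and the second Col25a1 at chr3:130270497-130270556 (mm9, the build of the scanner files), with the glycine codons in capitals.
Col15a1 probe: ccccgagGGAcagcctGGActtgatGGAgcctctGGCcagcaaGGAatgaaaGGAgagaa
Col25a1 probe: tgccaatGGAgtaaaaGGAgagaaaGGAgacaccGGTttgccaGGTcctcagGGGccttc

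All values below are log2 signals of 1 probe relative to the 75th percentile (P75) of its array. They compare arrays for 1 probe and say nothing of the amount of one collagen against another. The P75 signal ran from 518.2 to 736.1 over the 8 arrays, and between 55.9% and 61.5% of the probes of an array were well above background. The 6 smooth muscle markers (Acta2, Myh11 and others) and the 6 endothelial markers (Pecam1, Cdh5 and others) were well above background on all 8 arrays, as were the 6 fibroblast markers. All 6 smooth muscle markers had a higher mean in miR-126-/-, with mean levels from 3.99 to 4.59 in miR-126+/+ and from 4.36 to 5.10 in miR-126-/- arteries. All 6 endothelial markers did so too, with mean levels from 1.86 to 2.10 and from 2.03 to 2.36. The median differences were 0.28 and 0.22, beside 0.01 for the fibroblast markers, of which 4 of 6 were higher. The mean level of 10 adipocyte markers ran from 2.18 to 3.60 in miR-126+/+ and from 3.54 to 4.51 in miR-126-/- arteries, and all 10 had a higher mean in miR-126-/-. Skeletal muscle markers were highest on arrays miR-126+/+ 2 and miR-126-/- 1, and epithelial markers on miR-126-/- 4, with all 5 tested epithelial markers higher in the mean of miR-126-/-. The part of these cell types in the results below was not tested, except that the adipocyte and skeletal muscle means were also used as covariates. The adipocyte mean largely follows the genotype, so a fit with it separates the genotype from it poorly. The miR-126+/+ arrays filled 1 row of the single slide and the miR-126-/- arrays the other, so an effect of the row cannot be told apart from one of genotype.

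No collagen gene differed between the genotypes past the threshold. Of the 37 tested genes, 0 had an adjusted p under 0.05 (limma, Benjamini-Hochberg over all genes tested), where 23 of all genes tested did (0.0965%). At an unadjusted p under 0.05 there were 2 collagen genes by their tested probe, Col3a1 and Col25a1, a share of 5.41% beside 10.2% of all genes tested. Further, dimmer probes of Col15a1 (0.00345 and 0.0252) and Col16a1 (0.00548) also had an unadjusted limma p under 0.05 when each probe was fitted on its own. Over the alternative settings that gave a value, Col3a1 had such a p in 12 of 22 and Col25a1 in 14 of 21. The mean was higher in miR-126-/- for 20 members and lower for 17, and the median difference was 0.02, beside 0.0076 over all genes tested. Col4a3, Col9a1 and Col13a1, all among the 20, passed the filter on dim probes through the miR-126-/- arrays alone. A strict filter (well above background on all arrays) leaves these and Col25a1 out. With it 17 members were higher and 16 lower. The groups of 4 did not overlap for 1 member (2.70%), Col3a1, beside 6.27% of all genes tested. For 12 of the 37 genes the 95% interval of the difference lay within 1.5-fold in both directions, and for 23 within 2-fold, so for the other 14 a difference of 2-fold in at least 1 direction was within the interval. The arrays read RNA of the whole artery, where fewer cells of a type and less RNA per cell cannot be told apart.

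**Figure D1:**
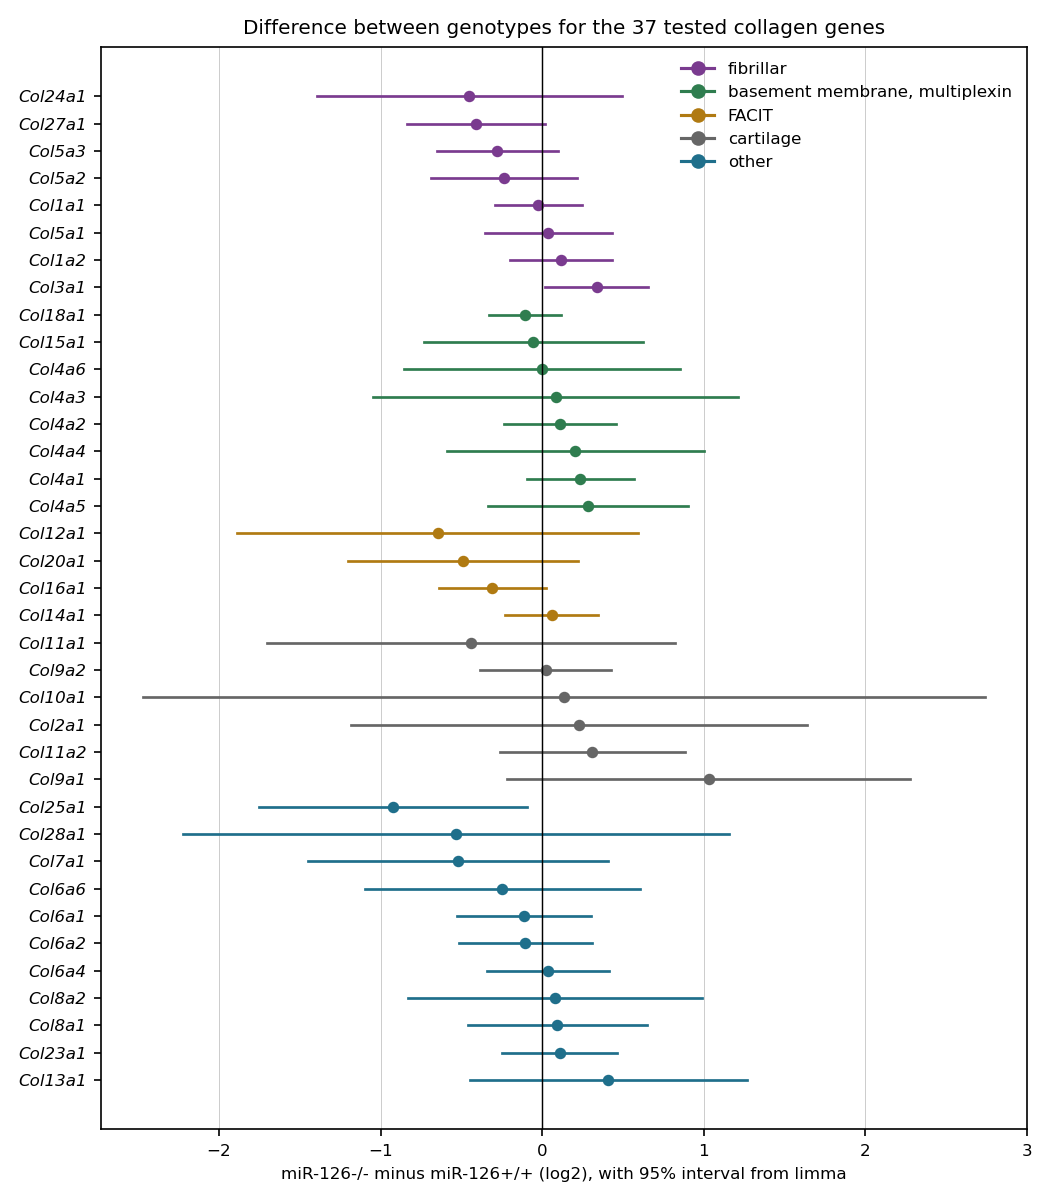
Difference in log2 signal, miR-126-/- minus miR-126+/+ (horizontal axis), for the 37 tested collagen genes (vertical axis), coloured by group. Points are the differences of the means of 4 and 4 arrays and lines their 95% intervals from limma. The intervals of Col3a1 and Col25a1 alone leave out 0, before adjustment over all genes.

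The fibrillar chains Col1a1 and Col1a2, which together make type I collagen, did not pass the threshold, and their 95% intervals lay within 1.5-fold. Col1a1 (chr11:94813115-94813174) read 7.11, 7.04, 7.48 and 7.09 in the miR-126+/+ arteries and 7.07, 7.24, 7.12 and 7.19 in the miR-126-/- arteries. Its means were 7.18 ± 0.20 and 7.16 ± 0.08 (SD, n = 4 each), and the ratio of miR-126-/- over miR-126+/+ was 0.984 with a 95% interval of 0.817 to 1.18. Array miR-126+/+ 3 was the highest of all, and 3 of the 4 miR-126-/- arrays lay above the other 3 miR-126+/+ arrays. Without miR-126+/+ 3 the difference was 0.08, against -0.02 with it, and had an adjusted p of 0.786. Col1a2 (chr6:4490619-4490678) read 8.70, 8.59, 9.02 and 8.53 against 8.61, 8.87, 8.83 and 9.0, a ratio of 1.08 with an interval of 0.870 to 1.35. Its lowest and its highest array were both miR-126+/+.

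Col3a1, the single chain of type III collagen, which forms thin fibrils together with type I in the vessel wall, had the smallest unadjusted p among the fibrillar chains. It read 8.13, 7.56, 8.03 and 7.73 in miR-126+/+ and 8.14, 8.32, 8.17 and 8.17 in miR-126-/- (chr1:45405589-45405648). All 4 miR-126-/- arrays stood above all 4 miR-126+/+ arrays, with 8.14 against 8.13 at the closest point. The difference was 0.34 ± 0.14 (SE), a ratio of 1.26 with an interval of 1.01 to 1.58, an unadjusted p of 0.0401 and an adjusted p of 0.460. The spread was wider in miR-126+/+ (SD 0.26) than in miR-126-/- (SD 0.08), and the low values were those of arrays 2 and 4. With the adipocyte marker mean of each array in the fit, the difference of Col3a1 was 0.62 ± 0.21 (SE), with an adjusted p above 0.99. Without array miR-126+/+ 2 it was 0.24.

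Since type I and type III collagen share fibrils, the log2 ratio of Col3a1 to Col1a1 was set beside the single values, a choice made after they were seen. The ratio was 1.02, 0.51, 0.55 and 0.64 in the miR-126+/+ arteries and 1.07, 1.07, 1.04 and 0.99 in the miR-126-/- arteries. The miR-126-/- values lay close together, and array miR-126+/+ 1 fell among them while the other 3 miR-126+/+ arrays were lower. The means differed by 0.36, with a two-sided exact permutation p of 0.0571 (adjusted 0.171 over the 3 ratios formed from Col1a1, Col1a2 and Col3a1), where 0.0286 is the smallest p that 4 against 4 allows. The log2 ratio of Col3a1 to Col1a2 differed by 0.22 and that of Col1a2 to Col1a1 by 0.14, each with an adjusted exact permutation p of 0.171.

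The remaining chains of the fibrillar group were Col24a1, Col27a1 and the 3 chains of type V collagen, which sits inside type I fibrils and limits their width. Each gene was put in a single group. Col2a1, Col11a1 and Col11a2 also form fibrils but were grouped with the cartilage chains, so the fibrillar counts leave them out. They differed by 0.23, -0.44 and 0.31. Col5a3 read 5.09, 4.80, 5.37 and 5.0 against 4.78, 4.99, 4.95 and 4.45, a difference of -0.28 with an adjusted p of 0.654. The lowest miR-126-/- array was number 4 and the ranges overlapped. Col27a1, found mainly in cartilage and other developing tissues, read 0.63, 0.19, 0.14 and 0.51 in miR-126+/+ and 0.30, -0.0067, -0.46 and 0.000048 in miR-126-/-. Its difference was -0.41 ± 0.18 (SE), a ratio of 0.753 with an interval of 0.561 to 1.01 and an adjusted p of 0.514. One miR-126-/- array lay within the miR-126+/+ range and the other 3 below it. Col5a1 differed by 0.04, Col5a2 by -0.24 and Col24a1 by -0.45, with adjusted p of 0.964, 0.774 and 0.793. Array miR-126+/+ 3 was 1.04 above the next array for Col24a1, and without it the difference of Col24a1 was -0.07. Col24a1 differed by 0.67 ± 0.52 (SE) and Col5a2 by 0.32 ± 0.24 (SE) with the adipocyte marker mean in the fit, and Col5a1 by -0.12 without miR-126+/+ 2. Of the 8 chains in the fibrillar group, 3 had a higher and 5 a lower mean in miR-126-/-, with a median difference of -0.13. That median was 0.0052 without array miR-126+/+ 3 and -0.24 without miR-126+/+ 2.

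**Figure D2:**
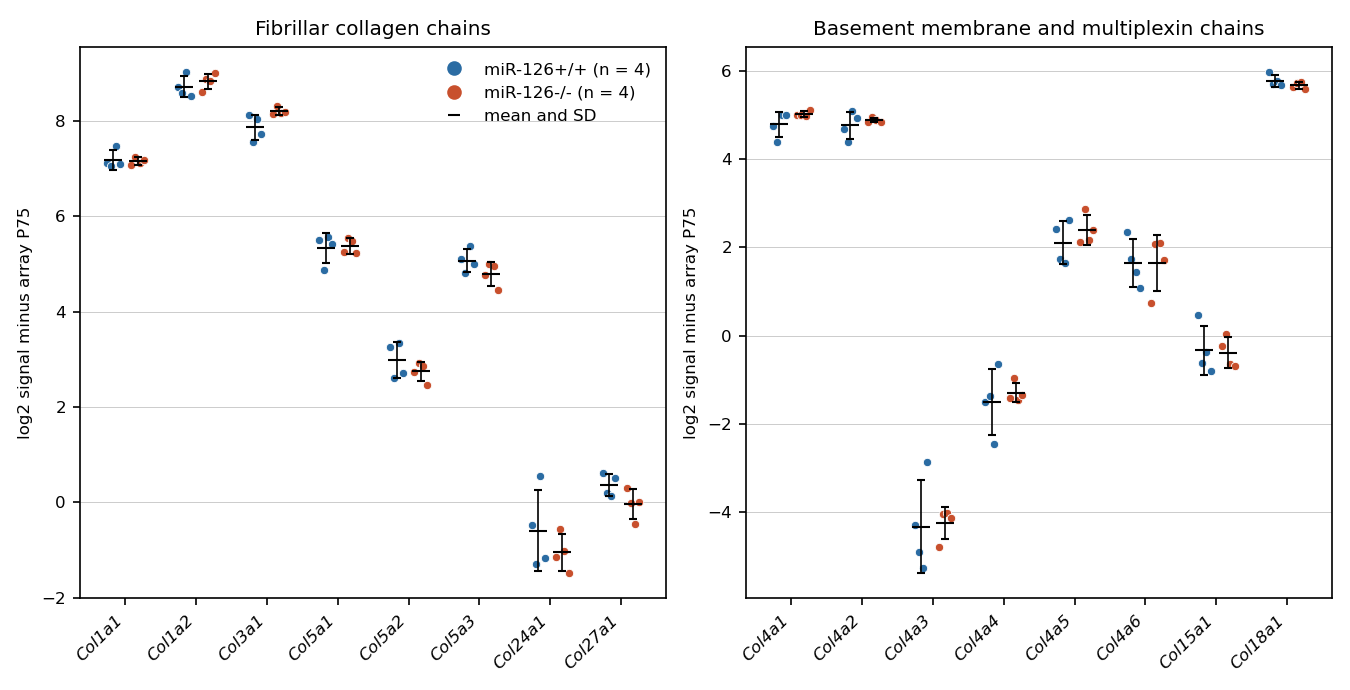
Log2 signal relative to the array's P75 (vertical axis), 1 point per array, with mean and SD of 4 arrays per genotype in black. Genes (horizontal axis) are the 8 chains of the fibrillar group and the 8 basement membrane and multiplexin chains. The Col3a1 points of miR-126-/- lie above those of miR-126+/+ with a narrow gap, and all other genes overlap. Heights are not comparable between genes.

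Among the basement membrane chains 6 had a higher and 2 a lower mean in miR-126-/-, with a median difference of 0.10 and 0 of 8 past the threshold. That median was -0.07 without array miR-126+/+ 3, 0.0074 without miR-126+/+ 2 and 0.24 without miR-126-/- 1 or miR-126+/+ 4. Col4a3, among the 6, passed the filter on dim probes through the miR-126-/- arrays alone. With the strict filter, which leaves it out, the median was 0.11. Col4a1 and Col4a2 make the common type IV collagen of vessel basement membranes. Col4a1 (chr8:11199009-11199068) read 4.75, 4.40, 5.0 and 5.01 in miR-126+/+ and 5.0, 5.0, 4.98 and 5.11 in miR-126-/-. Arrays miR-126+/+ 1 and 2 were low and the other 6 lay close together. The difference was 0.24, a ratio of 1.18 with an interval of 0.937 to 1.48 and an adjusted p of 0.664. Col4a2 (chr8:11448840-11448899) read 4.69, 4.39, 5.09 and 4.93 against 4.85, 4.95, 4.89 and 4.85, a ratio of 1.08 with an interval of 0.849 to 1.38. The same 2 arrays were its lowest, and its SD was 0.31 in miR-126+/+ and 0.05 in miR-126-/-.

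Col4a1 and Col4a2 lie head to head, with start sites 21 bases apart in the RefSeq table, and their promoter windows (250 bases before to 50 after the start) share 78 bases. Both windows are shown because both chains are known to be transcribed from this stretch, with the shared bases in capitals. They are chr8:11312777-11313076 on the minus strand and chr8:11312555-11312854 on the plus strand of GRCm38.p6.
Col4a1 promoter: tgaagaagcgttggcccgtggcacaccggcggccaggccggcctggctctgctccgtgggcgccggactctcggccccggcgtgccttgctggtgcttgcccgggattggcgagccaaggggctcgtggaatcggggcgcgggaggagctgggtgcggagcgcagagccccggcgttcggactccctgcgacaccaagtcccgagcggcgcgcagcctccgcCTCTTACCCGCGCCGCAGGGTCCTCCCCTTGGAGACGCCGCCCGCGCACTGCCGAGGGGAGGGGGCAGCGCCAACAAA
Col4a2 promoter: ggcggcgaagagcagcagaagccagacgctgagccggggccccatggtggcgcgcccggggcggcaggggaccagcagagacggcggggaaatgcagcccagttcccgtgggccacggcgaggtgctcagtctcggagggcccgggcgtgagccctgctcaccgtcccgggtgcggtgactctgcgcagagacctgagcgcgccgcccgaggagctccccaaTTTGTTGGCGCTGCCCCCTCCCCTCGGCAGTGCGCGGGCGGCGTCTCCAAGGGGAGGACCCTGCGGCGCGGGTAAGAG

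The Col4a1 window has a GC content of 74.0% and the Col4a2 window of 73.7%, beside a median of 52.7% over 32851 windows of the same length. Searched on both strands, the letters CCAAT occurred 1 time in each window and were present in 37.4% of all windows. The letters GGGCGG, a GC box, occurred 1 time in the Col4a1 window and 3 times in the Col4a2 window, beside 35.7% of all windows with at least 1 match. Of the 41 collagen genes 33 had a window in the table.

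The other type IV chains belong to the networks of kidney, lung and smooth muscle basement membranes. Col4a5, which pairs with Col4a6 in smooth muscle, read 2.41, 1.74, 1.65 and 2.63 against 2.12, 2.88, 2.17 and 2.40, a difference of 0.28 with an adjusted p of 0.798 and partial overlap. Col4a6 differed by 0.0004 and ranged over 1.62 log2 units between arrays. Col4a4 differed by 0.21 with an adjusted p of 0.901. Col4a3 was well above background on 2 of 4 miR-126+/+ and 4 of 4 miR-126-/- arrays and differed by 0.09, with an interval of the ratio from 0.485 to 2.32.

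Col18a1 and Col15a1 are multiplexins, basement membrane proteoglycans whose C-terminal pieces endostatin and restin restrain vessel growth. Col18a1 read 5.97, 5.70, 5.78 and 5.68 against 5.65, 5.74, 5.75 and 5.58, a ratio of 0.930 with an interval of 0.797 to 1.08. This was the narrowest range over arrays of any tested member, 0.39. Col15a1 read 0.46, -0.62, -0.36 and -0.81 against -0.23, 0.03, -0.64 and -0.70 with its tested probe, the helix probe shown above, and differed by -0.05. The miR-126-/- values lay inside the miR-126+/+ range.

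Col15a1 has 2 further probes, and they did not give the same size of difference. The second probe (chr4:47325273-47325332) read -0.54, -1.02, -1.0 and -0.81 against -1.04, -1.23, -1.20 and -1.29. The third probe (chr4:47325261-47325320) read -1.22, -1.60, -1.51 and -1.35 against -1.71, -1.99, -1.98 and -2.19. In both, all 4 miR-126-/- arrays were below all 4 miR-126+/+ arrays. The differences were -0.35 ± 0.13 and -0.54 ± 0.13 (SE), with adjusted p of 0.421 and 0.236 in a limma fit over all 32484 probes past the filter. The positions of these 2 probes overlap, so they are not separate measurements of the gene. With the adipocyte marker mean in the fit, the tested probe gave 0.68 ± 0.40 (SE).

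In the FACIT group 4 of 6 genes could be tested, with 1 higher, 3 lower and a median difference of -0.40, and 0 past the threshold. That median was -0.17 without array miR-126+/+ 3. The type IX chains Col9a1, Col9a2 and Col9a3 are FACIT collagens too but were grouped with the cartilage chains, so these counts leave them out. Col9a1, a dim gene, differed by 1.03 and Col9a2 by 0.02, and Col9a3 was not tested. Col16a1, made by fibroblasts and smooth muscle cells, read 6.14, 5.87, 6.34 and 6.14 in miR-126+/+ and 6.05, 5.92, 5.76 and 5.54 in miR-126-/- (chr4:129776333-129776392). The difference was -0.31 ± 0.14 (SE), a ratio of 0.808 with an interval of 0.641 to 1.02 and an adjusted p of 0.537. Array miR-126-/- 4 was the lowest, and this probe lies in an area of that array whose spots had a median 0.36 log2 units lower than the rest of the array, relative to the other 7 arrays. Without that spot the difference was -0.22 ± 0.14 (SE) with an adjusted p of 0.690.

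Both further Col16a1 probes lie outside the dim area. The probe at chr4:129776460-129776519 read 3.75, 3.28, 3.71 and 3.38 against 3.25, 2.89, 2.71 and 2.53. Every miR-126-/- array stood below every miR-126+/+ array, and the difference was -0.68 ± 0.18 (SE) with an adjusted p of 0.275 over all probes. The probe at chr4:129756457-129756516 read -0.42, -0.79, -0.32 and -0.84 against -0.71, -0.75, -1.18 and -1.41, a difference of -0.42 ± 0.20 (SE) with overlap. All 3 probes thus had a lower mean in miR-126-/-, none of them past the threshold. With the adipocyte marker mean in the fit the tested probe gave 0.01 ± 0.21 (SE).

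**Figure D3:**
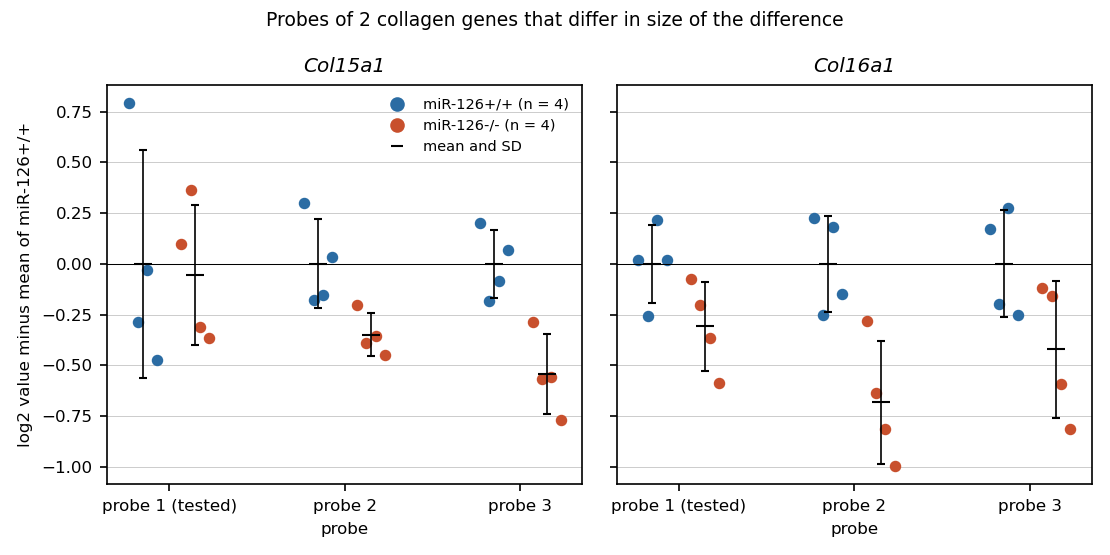
Log2 value of each array minus the miR-126+/+ mean (vertical axis) for the 3 probes of Col15a1 and the 3 probes of Col16a1 (horizontal axis), with mean and SD of 4 arrays per genotype in black. Probes 2 and 3 of Col15a1 and probe 2 of Col16a1 show no overlap of the genotypes, and the tested probe 1 of each gene does.

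Col12a1, a FACIT of stretched and healing connective tissue, read 1.79, 1.05, 3.36 and 0.71 in miR-126+/+ and 1.19, 0.58, 1.39 and 1.17 in miR-126-/-. Array miR-126+/+ 3 stood 1.57 above the next highest array, and the other 7 overlapped. The difference was -0.65 with an interval of the ratio from 0.270 to 1.51, and without array miR-126+/+ 3 it was -0.10. Col20a1 read -0.63, -0.31, -1.46 and -0.59 against -0.63, -1.53, -1.10 and -1.71, a difference of -0.49 with an adjusted p of 0.678 and overlap. Col14a1, which bridges fibrils to decorin, differed by 0.06 with an interval of the ratio from 0.854 to 1.27. Col19a1 was not well above background on any array, and Col22a1, a collagen of tissue junctions, on 2 miR-126+/+ and 1 miR-126-/- arrays, so neither was tested.

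The chains best known from cartilage were tested for 6 of 7 genes, with 5 higher and 1 lower in miR-126-/-, a median difference of 0.18 and 0 past the threshold. Col9a1, among the 5, passed the filter on dim probes through the miR-126-/- arrays alone. With the strict filter, which leaves it out, the median was 0.14. With 1 array left out the median ran from 0.0055 without miR-126+/+ 1 to 0.37 without miR-126+/+ 4, and with the adipocyte marker mean in the fit it was -0.06. Of 9 chondrocyte markers 6 were tested, with a median difference of 0.02 and mean levels from -1.72 to -1.41 in miR-126+/+ and from -1.76 to -1.20 in miR-126-/- arteries. Matn1, Matn3 and Ucma, which mark cartilage cells, were too dim to test. Col9a1 read -6.30, -6.71, -4.57 and -4.89 against -4.66, -4.09, -5.50 and -4.10. It was well above background on 1 of 4 miR-126+/+ and 3 of 4 miR-126-/- arrays, so the difference of 1.03 (ratio interval 0.859 to 4.86, adjusted p = 0.598) rests on dim signals. A brighter Col9a1 probe, well above background on 2 arrays, did not pass the filter. It averaged -4.63 ± 0.22 in miR-126+/+ and -4.76 ± 0.61 in miR-126-/- (SD, n = 4 each), a difference of -0.13 when no filter was used.

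Col11a1, a chain that starts the fibrils of cartilage and is also made by activated fibroblasts, read -0.87, -1.44, 1.14 and -0.64 against -1.23, -0.06, -1.27 and -1.01. Array miR-126+/+ 3 stood 1.20 above the next highest, and the only Col11a1 probe sits in the same dim area of miR-126-/- 4. The difference was -0.44, and -0.40 ± 0.63 (SE) without that spot. Without array miR-126+/+ 3 it was 0.09. Col11a2 read -3.88, -3.43, -2.86 and -2.88 against -3.30, -2.76, -2.92 and -2.81, a difference of 0.31 with an adjusted p of 0.760 and overlap. Col2a1, the main collagen of cartilage, differed by 0.23, Col9a2 by 0.02 and Col10a1 by 0.14. Col10a1, made by cartilage cells before bone forms, had the widest range of any tested member, 4.55 log2 units, from -3.43 to 1.12 in miR-126+/+ and from -3.08 to 0.82 in miR-126-/-. Col9a3 was not well above background on any array.

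The other collagens comprise beaded filament, short-chain, anchoring and membrane-spanning chains, and 11 of 12 were tested. Of these 5 had a higher and 6 a lower mean in miR-126-/-, with a median difference of -0.10 and 0 past the threshold. With the strict filter, which leaves out Col13a1 and Col25a1, the median was also -0.10. Col25a1, a membrane-spanning collagen best known from neurons, read -3.73, -3.25, -2.63 and -4.32 in miR-126+/+ and -4.26, -4.13, -4.27 and -4.96 in miR-126-/-. Array miR-126+/+ 4 fell within the miR-126-/- range and the other 3 lay above it. The difference was -0.92 ± 0.36 (SE), a ratio of 0.527 with an interval of 0.297 to 0.936, an unadjusted p of 0.0330 and an adjusted p of 0.436. Its tested probe, the second helix probe shown above, was well above background on 4 miR-126+/+ and 3 miR-126-/- arrays, and its 3 further probes were too dim to test. With the adipocyte marker mean in the fit the difference was 0.05 ± 0.46 (SE).

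Col13a1, another membrane-spanning collagen, read -4.05, -3.90, -4.27 and -5.42 against -4.44, -3.67, -3.52 and -4.36, a difference of 0.41 with an adjusted p of 0.791. It was well above background on 2 of 4 miR-126+/+ and on all miR-126-/- arrays, and the values overlapped. Like Col4a3 and Col9a1, it passed the filter on dim probes through the miR-126-/- arrays alone. Col7a1, the anchoring fibril collagen of skin, read 1.61, 1.11, 3.05 and 1.25 against 1.21, 1.49, 1.26 and 0.98. Array miR-126+/+ 3 stood 1.44 above the next highest, and the difference was -0.52 with an adjusted p of 0.752. Without that array it was -0.09. Col17a1, of the skin hemidesmosome, was not well above background on any array, including miR-126-/- 4, which had the highest epithelial markers.

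Col8a1, a short-chain collagen of the vascular intima that smooth muscle cells make after injury, read 1.76, 1.48, 2.15 and 0.98 in miR-126+/+ and 1.74, 1.63, 1.47 and 1.92 in miR-126-/-. The miR-126-/- values lay inside the miR-126+/+ range, and the ratio was 1.07 with an interval of 0.728 to 1.57. Its partner Col8a2 differed by 0.08, with array miR-126+/+ 3 highest by 1.05. Without that array it differed by 0.52 ± 0.13 (SE), with an unadjusted p of 0.00449 and an adjusted p of 0.272. A second, dimmer Col8a2 probe went the other way over all arrays. It averaged -3.14 ± 0.89 in miR-126+/+ and -3.52 ± 0.82 in miR-126-/- (SD, n = 4 each), a difference of -0.38 ± 0.53 (SE). With the mean of the gene's probes the difference of Col8a2 was -0.15. The type VI chains Col6a1 and Col6a2, which form beaded filaments around cells, differed by -0.11 and -0.10, with ratio intervals of 0.694 to 1.23 and 0.700 to 1.24. Col6a4 differed by 0.04, Col6a6 by -0.25, Col23a1 by 0.11 and Col28a1 by -0.53.

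For some members a single array stood far from the others. The median range over the 8 arrays, which includes any genotype difference, was 1.17 log2 units for the 37 collagen genes and 0.69 for all genes tested. By group it ran from 0.83 for the fibrillar to 2.60 for the cartilage chains. Array miR-126+/+ 3 was the highest for 16 of the 37 members (43.2%), beside 29.2% of all genes tested. The gap to the next array exceeded 1 log2 unit for Col12a1, Col7a1, Col11a1, Col8a2 and Col24a1. For others of the 16 it was small, such as 0.01 for Col5a1 and 0.02 for Col1a2. On the same array the mean of the collagen breakdown list, proteases and their Timp inhibitors, stood 0.90 above the mean of the 8 arrays. That of the chain modification list stood 0.38 above it. The adipocyte markers stood 1.27 and the Schwann cell markers 1.09 below it, the lowest of all arrays for both. The part of these in the result was not tested. Array miR-126+/+ 2 was the lowest for 11 members (29.7%, all genes 19.5%) and miR-126-/- 4 for 9 members (24.3%, all genes 8.69%).

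Array miR-126+/+ 3 was the lowest for 5 members, the basement membrane chains Col4a3, Col4a4 and Col4a5 and the chains Col28a1 and Col2a1. Col28a1, a collagen of peripheral nerve sheaths, ranged from -3.41 on miR-126+/+ 3 to 0.05 on miR-126+/+ 2, and Col2a1 from -3.59 to -0.51 on the same 2 arrays. These were also the arrays with the lowest and highest Schwann cell marker means, -1.09 and 0.58 relative to the mean of all arrays. On miR-126+/+ 1 and 4 those means were -0.02 and 0.33, and Col28a1 read -0.74 and -2.11. On miR-126-/- 1 to 4 they were 0.21, -0.25, -0.26 and 0.50, and Col28a1 read -1.10, -2.57, -2.60 and -2.07. Array miR-126+/+ 2 also had the highest skeletal muscle marker mean, 3.31. A relation to these markers was not tested. The chondrocyte markers, which Col2a1 belongs with in cartilage, stood at 0.17 on miR-126+/+ 3 and -0.14 on miR-126+/+ 2. The 5 genes were picked after their values were seen.

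**Figure D4:**
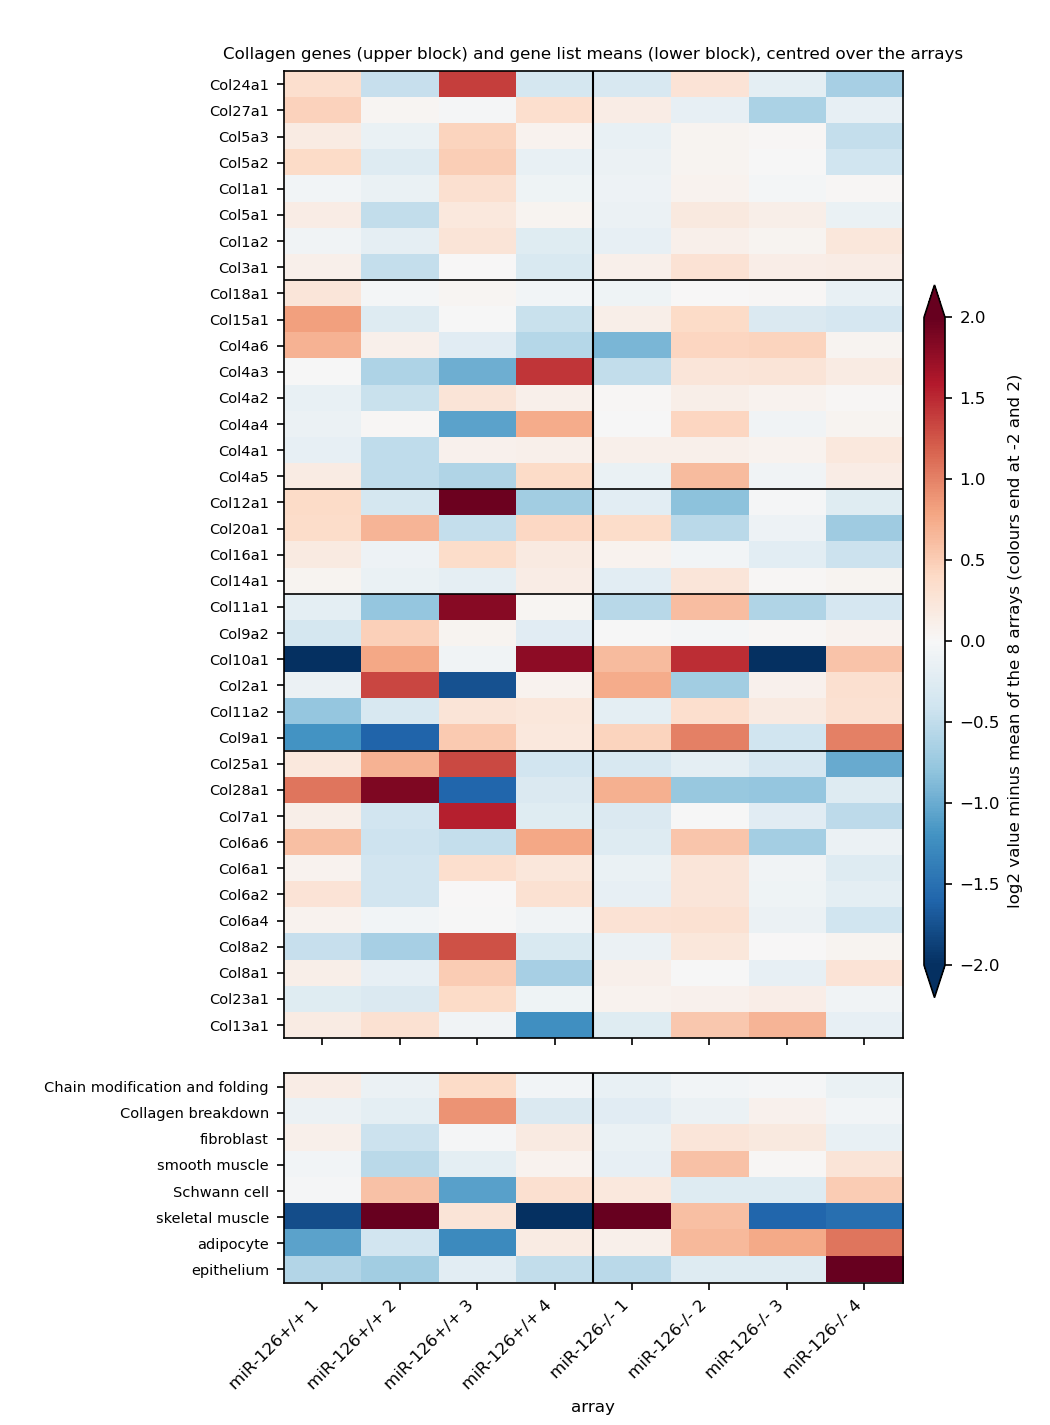
Log2 value minus the mean of the 8 arrays (colour, ending at -2 and 2) for the 37 tested collagen genes in the upper block, in the order of the plot of differences, and for gene list means in the lower block, with arrays in columns. The column of miR-126+/+ 3 is the highest for 16 members and holds the lowest Schwann cell and adipocyte means.

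Chains that build 1 protein, and Col1a1 with Col3a1, whose proteins share fibrils, were compared over the 8 arrays for 7 of 10 pairs. Both chains of these pairs were well above background on all arrays. Pairs of unrelated chains were not compared, so a relation of partners cannot be told apart from shifts that many genes share on an array. For example, Col5a1 and Col6a1, which are not partners, were both highest on miR-126+/+ 3 and lowest on miR-126+/+ 2. Col4a3 with Col4a4 and Col9a1 with Col9a2 were left out because Col4a3 and Col9a1 were dim on some arrays. Col6a1 with Col6a3 was left out because no probe carried the name Col6a3, not for a dim signal. Col1a1 and Col1a2 had a Pearson r of 0.80 (exact permutation p = 0.00312, adjusted over the 7 pairs 0.0219) and a Spearman rho of 0.90 (adjusted exact permutation p = 0.0160). Without the 2 arrays farthest from the median of Col1a1, miR-126+/+ 3 and miR-126-/- 2, r was 0.91. Col6a1 and Col6a2 had an r of 0.82 (adjusted exact permutation p = 0.0437), 0.92 without 2 arrays, and a rho of 0.79 (adjusted exact permutation p = 0.0652). Col5a1 and Col5a2 had an r of 0.69 (adjusted exact permutation p = 0.10) and a rho of 0.93 (adjusted exact permutation p = 0.0156).

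The head-to-head pair Col4a1 and Col4a2 had the highest r, 0.89 (adjusted exact permutation p = 0.0437), but a rho of 0.50 (adjusted exact permutation p = 0.284). Without arrays miR-126+/+ 2 and 1 its r was -0.42, so the relation rests on those 2 arrays. The r was 0.34 for Col1a1 with Col3a1, 0.21 for Col4a5 with Col4a6 and 0.63 for Col8a1 with Col8a2, with adjusted exact permutation p of 0.459, 0.617 and 0.158.

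**Figure D5:**
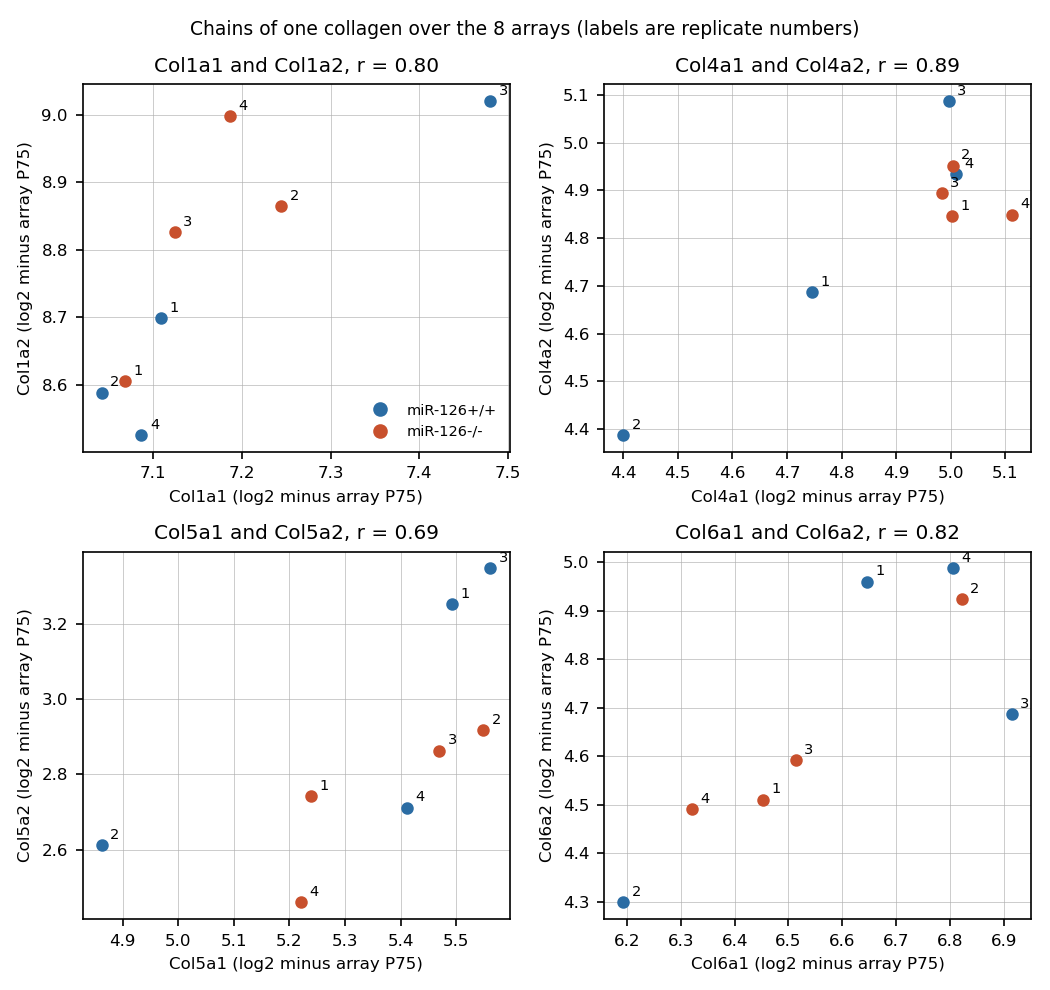
Log2 signals relative to the array's P75 of 2 chains of 1 collagen, 1 point per array, numbered by replicate and coloured by genotype. The 8 points of Col1a1 and Col1a2 spread along a line, whereas those of Col4a1 and Col4a2 form a cluster of 6 with miR-126+/+ 1 and 2 below it.

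The enzymes that make, cut and link collagen, and the proteins that bind it, were described from lists of genes. In none of the 6 lists did a gene pass the adjusted threshold (limma), beside 0.0965% of all genes tested. The list of 18 genes for chain modification and folding in the cell also holds the transcription factor Creb3l1 and the export receptor Mia3. Of the 18, 17 had a lower and 1, Mia3, a higher mean in miR-126-/-, with a median difference of -0.11. Over all genes tested 48.3% had a lower mean. Without array miR-126+/+ 3, on which these genes were highest, 9 of the 18 were lower and the median was -0.0094. The count of lower genes was 5 and the median 0.08 with the adipocyte marker mean in the fit. The genes with the smallest p were P3h2, a prolyl 3-hydroxylase (-0.48 ± 0.16 SE, adjusted p = 0.340), Colgalt2, which adds galactose to hydroxylysine (-0.54, adjusted p = 0.385), and the lysyl hydroxylases Plod3 (-0.23, adjusted p = 0.607) and Plod2 (-0.24, adjusted p = 0.714). P3h2 and Colgalt2 had an unadjusted p under 0.05, 2 of 18 genes beside 10.2% of all genes tested. Serpinh1, the collagen chaperone HSP47, differed by -0.05.

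Of 11 tested genes that process or crosslink procollagen, 4 had a higher and 7 a lower mean. Tll1, a tolloid protease that removes the C-propeptide of fibrillar procollagens, averaged -1.56 ± 0.25 in miR-126+/+ and -2.66 ± 0.24 in miR-126-/- (SD, n = 4 each) without overlap. Its difference was -1.10 ± 0.17 (SE) with an adjusted p of 0.0749, and it was the only gene of the list with an unadjusted p under 0.05. Pcolce, which speeds that cleavage, differed by -0.18 and Bmp1, the main protease of this step, by -0.22, with adjusted p of 0.665 and 0.717. Loxl3 differed by 0.08 and the crosslinking enzyme Lox by -0.05.

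Of the 12 genes whose products lie on fibrils or help to assemble them, 4 had a higher and 8 a lower mean. Dcn, the proteoglycan decorin that coats type I fibrils, averaged 8.34 ± 0.30 against 7.51 ± 0.30 (SD, n = 4 each), a difference of -0.83 ± 0.20 (SE) without overlap and with an adjusted p of 0.215. Prelp, which anchors fibrils to basement membranes, differed by 0.24 without overlap (adjusted p = 0.439). Fn1, on whose fibrils collagen is laid down, differed by -0.77 and Sparc, a collagen-binding matricellular protein, by -0.33, with adjusted p of 0.458 and 0.476. These 4 of 12 had an unadjusted p under 0.05, beside 10.2% of all genes tested. Without array miR-126+/+ 3, 6 of the 12 had a lower mean.

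Of 9 collagen receptors 4 were higher and 5 lower, all with an unadjusted p above 0.05. The integrin chain Itga1 differed by 0.09, the receptor kinases Ddr2 by 0.14 and Ddr1 by -0.09, and Mrc2, which takes up collagen fragments, by -0.16. The list of 10 genes for collagen breakdown holds proteases and the protease inhibitors Timp1 (0.01), Timp2 (-0.04) and Timp3 (0.03). Of the 10, 3 were higher and 7 lower, with 0 at an unadjusted p under 0.05, and these counts mix genes of opposite action. The smallest p were those of the cysteine protease Ctsk (-0.32), the gelatinase Mmp2 (-0.21), Fap (-0.14) and the collagenase Mmp14 (-0.19). The median difference of this list was -0.16 with 7 lower, 0.04 with 4 lower without array miR-126+/+ 3, and 0.16 with 2 lower when the adipocyte marker mean was in the fit. 
Of 16 basement membrane partners, the laminins, nidogens and others that join the type IV network, 9 had a higher and 7 a lower mean, with a median difference of 0.04. Nid2, a nidogen that links laminin to type IV collagen, averaged 2.56 ± 0.08 in miR-126+/+ and 2.09 ± 0.23 in miR-126-/- (SD, n = 4 each), a difference of -0.48 ± 0.13 (SE) without overlap and with an adjusted p of 0.256, the only one of the list with an unadjusted p under 0.05. Hspg2, the proteoglycan perlecan, differed by 0.26, and the laminin chains Lama3 by 0.26 and Lama1 by -1.18, with adjusted p of 0.717, 0.654 and 0.666. The SD of Lama1 was 1.52 in miR-126+/+ and 0.66 in miR-126-/-.

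Probes whose names do not follow the collagen pattern but whose descriptions name a collagen were read as well. A transcript probe for the type VI chain alpha 3, the long partner of Col6a1 and Col6a2, read 6.14, 5.54, 6.12 and 6.15 against 5.91, 6.07, 5.86 and 5.82, a difference of -0.07 ± 0.15 (SE) with an adjusted p of 0.922. Array miR-126+/+ 2 was the lowest, as it was for Col6a1 and Col6a2. Col6a5, listed on the array under an older name, read 0.59, 0.77, -0.43 and 0.49 against -0.89, -0.36, -0.0067 and -0.01, a difference of -0.68 ± 0.30 (SE) with an adjusted p of 0.525. Array miR-126+/+ 3 lay within the miR-126-/- range and the other 3 miR-126+/+ arrays above it. Col26a1, also under an older name, differed by -0.65 ± 0.85 (SE) and a transcript probe described as type XXII collagen by -0.46 ± 0.21 (SE), with adjusted p of 0.864 and 0.529.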

How the data were processed

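RNA of 8 wire-injured carotid arteries (100 ng each) was labelled with Cy3 and hybridised to 1-colour Agilent mouse arrays, per the labels' protocols. The scanner files hold each spot's intensity, background-subtracted by Agilent Feature Extraction 10.7.3.1 per the file headers, with mm9 positions. Here spots of a probe were averaged without outlier flags, divided by the array's 75th percentile and put on the log2 scale. A probe was kept if 3 or 4 arrays of either genotype had it well above background, which left 32484 of 55681 probes and 51 of 61 collagen probes. Of a gene's kept probes the brightest was used, even where a brighter probe had failed this filter. RefSeq accessions named 58 of the 61 collagen probes. Limma 3.58.1 in R 4.3.3 tested the genotype over all genes, two-sided, with Benjamini-Hochberg adjustment and a threshold of 0.05, after a test on simulated data. The authors' deposited table holds linear intensity values (column medians 41.7 to 57.5, scale otherwise unstated), and their log2 lay within 0.1 of that of the scanner signals for at least 99.9% of probes on each array.

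Values on every array are given for members with an unadjusted p under 0.05, the 3 members of each group with the smallest p, and 8 vessel wall collagens. Each list of enzymes and binding proteins names up to 4 genes by p, and Serpinh1 and Lox were added outside this rule. Members, gene lists and alternatives were chosen with earlier results of these data known. The fibroblast markers share Lum and Dpt with the fibril list. Each artery has 1 array, and the labels do not say whether a sample is 1 mouse, so p-values measure the spread between these samples. The number of arrays limits the precision. The alternatives were other background, scaling, filter, probe and variance settings, covariates, a replicate block and leaving out arrays.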

Additional observations from a re-analysis of the deposited data

Results flagged for a closer look

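Each genotype's 4 values of each tested member were checked for 1 array far from the others by Dixon's criterion, which chance passes in about 1 of 20 sets, and 4 of 74 sets passed. Col1a1 on miR-126+/+ 3 read 7.48, with the nearest array of its genotype at 7.11. Col4a1 on miR-126-/- 4 read 5.11, with the nearest at 5.0. Col4a3 on miR-126-/- 1 read -4.78, with the nearest at -4.12. Col25a1 on miR-126-/- 4 read -4.96, with the nearest at -4.27, and that array was not well above background for this probe.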

How the results depend on the processing

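Over 22 alternatives, 0 collagen genes passed the adjusted threshold in any. The number with an unadjusted p under 0.05 was 2, and became 1 without a filter on dim probes, 1 with a strict filter (well above background on all arrays), 6 with array weights, and 0 to 6 when 1 array was left out, the 6 without miR-126+/+ 3 and the 0 without miR-126-/- 4. The replicate numbers did not pair the samples (correlations of same-numbered arrays -0.28 to 0.20), and with a replicate block 2 members, Col27a1 and Col25a1 but not Col3a1, had an unadjusted p under 0.05 and 0 of all genes were called. Genes called over the whole array ranged from 0 to 73, the latter with array weights. The FACIT group median ran from -0.53 to -0.17 with 1 array left out, the latter without miR-126+/+ 3. With the adipocyte marker mean as a covariate the median difference was 0.23 for the fibrillar, -0.079 for the FACIT and 0.35 for the other group. That mean follows the genotype, at -1.07, -0.38, -1.27 and 0.16 against 0.10, 0.64, 0.75 and 1.06 relative to all arrays. The covariate therefore separates poorly from genotype, and the SE of Col4a1 was 0.26 with it and 0.14 without. With that covariate the sign turned for Col25a1 (0.051), Col5a3 (0.043), Col18a1 (0.037), Col4a5 (-0.16), Col16a1 (0.013), Col12a1 (0.82), Col11a2 (-0.071), Col7a1 (0.50), Col15a1 (0.68), Col5a2 (0.32), Col24a1 (0.67), Col4a3 (-1.33) and Col4a4 (-0.77), 13 of the 37 members and none past the threshold, and without a filter for Col9a1 (-0.13), read by another probe. A sign change was counted where the value exceeded its SE in either setting. The cause was not tested. Col3a1 ranged from 0.24 to 0.62. The list counts without miR-126+/+ 3 were added after seeing the data, and the 17 lower chain modification genes became 9. Col9a1, Col4a3, Col13a1 and Col25a1, not well above background on 1 or more arrays, are limited by signal over background.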
